A study of Rattus norvegicus with 24 samples.

Results

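Rats exposed to loud noise on 3 or 7 days were compared with rats exposed once or not at all, to see how the transcripts of the rostral posterior hypothalamic (rPH) region differed between repeated exposure and a single or no exposure. All rats were young adult male Sprague-Dawley rats (Envigo) that were placed daily in sound-attenuating chambers for 7 days. The control (C) group heard background noise only (0 loud noises), the AS group had 1 loud noise, the RS3 group had 3 and the RS7 group had 7, each a session of loud white noise given once per day and timed so that the last session fell on the same day in every group. A 2-mm coronal slice was collected 24 h after the last session, and a tissue block around the rPH region was later cut from the stored slice. Each library is thus the bulk polyA RNA of 1 rat and mixes neurons, glia and vessels. The comparison pools the RS3 and RS7 groups (10 rats) against the AS and C groups (10 rats), 20 of the 24 rats of the series. Rats 1 (RS7), 8 (RS3), 18 (AS) and 20 (C) were left out by the study for the quality of their libraries and enter only as a separate description. All 32883 Ensembl genes in the table were considered and 15802 had enough counts to be tested.

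The posterior hypothalamus takes part in the control of arousal, autonomic output and the hypothalamo-pituitary-adrenal axis, the hormonal system that releases corticosterone under stress. The hormonal response to the same stressor commonly shrinks as that stressor is repeated, which is called habituation. Many neurons of the hypothalamus use the inhibitory transmitter GABA, which is made from glutamate by 2 glutamate decarboxylases (Gad1 and Gad2), loaded into vesicles by a transporter (Slc32a1) and detected by ligand-gated chloride channels assembled from alpha, beta and other subunits. Wnt proteins are secreted ligands that bind Frizzled receptors at the membrane, and in the canonical branch they stabilise beta-catenin, which acts in the nucleus with factors of the Tcf/Lef family.

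The sequences in front of 4 genes on which the results below turn are shown first. They are the GABA synthesis and loading genes Gad1, Gad2 and Slc32a1, which were lower together after repeated exposure, and the Frizzled receptor gene Fzd5. Fzd5 separated the 20 compared rats most clearly. Each sequence is the 250 bases before the RefSeq start of the gene in the GRCr8 build, 5′ to 3′ on the strand of the gene. The sequences come from RefSeq and not from these libraries, whose reads were mapped to an older build. Capitals mark a match to AGAACA or its reverse complement TGTTCT, a glucocorticoid receptor half-site.
Gad1 (chr3:75777202-75777451, plus strand): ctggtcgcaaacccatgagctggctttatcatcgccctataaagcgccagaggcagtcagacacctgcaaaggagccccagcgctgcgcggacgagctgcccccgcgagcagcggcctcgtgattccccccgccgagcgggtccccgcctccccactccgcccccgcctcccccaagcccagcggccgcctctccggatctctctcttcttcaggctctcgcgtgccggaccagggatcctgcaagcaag
Gad2 (chr17:89671468-89671717, plus strand): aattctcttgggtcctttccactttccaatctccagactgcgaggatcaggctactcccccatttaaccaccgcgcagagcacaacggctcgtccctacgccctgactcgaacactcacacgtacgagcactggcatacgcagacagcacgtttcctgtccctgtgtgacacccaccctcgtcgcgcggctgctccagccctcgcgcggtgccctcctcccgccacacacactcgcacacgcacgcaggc
Slc32a1 (chr3:167686995-167687244, plus strand): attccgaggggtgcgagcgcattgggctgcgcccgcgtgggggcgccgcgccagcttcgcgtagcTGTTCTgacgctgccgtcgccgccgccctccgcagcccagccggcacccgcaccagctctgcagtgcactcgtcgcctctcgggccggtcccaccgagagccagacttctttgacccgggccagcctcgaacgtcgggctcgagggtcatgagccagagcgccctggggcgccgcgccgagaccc
Fzd5 (chr9:73614040-73614289, minus strand): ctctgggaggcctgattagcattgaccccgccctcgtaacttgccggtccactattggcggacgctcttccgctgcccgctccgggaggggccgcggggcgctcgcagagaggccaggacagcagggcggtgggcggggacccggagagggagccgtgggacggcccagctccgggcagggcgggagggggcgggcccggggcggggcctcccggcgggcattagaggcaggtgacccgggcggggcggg
The G and C content of these windows was 68.4% (Gad1), 62.0% (Gad2), 73.6% (Slc32a1) and 76.4% (Fzd5), against a median of 52.0% over the 27457 promoters with a symbol in the RefSeq table. The half-site was present once, in Slc32a1. Neither the homeodomain core TAATTA nor the Tcf/Lef core ATCAAAG was found in the 4 windows on either strand. A promoter was found for 93 of the 149 genes that were higher after repeated exposure and for 39 of the 81 that were lower. The half-site was present in 6.45% of the windows of higher genes and 17.9% of those of lower genes, against 17.1% of all promoters. The homeodomain core was present in 1.08% and 2.56%, against 4.94% of all, and the Tcf/Lef core in 3.23% and 0.0%, against 3.18% of all. Only 6 windows of higher genes and 7 of lower genes held the half-site, and all promoters include genes that were not tested here. The G and C content of the windows of called genes was not compared with that of all promoters. These shares are thus no result about the motifs. The letters mark matches and not sites of binding.

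Of 15802 genes tested, 230 were differentially expressed between repeated exposure and single or no exposure (edgeR, adjusted p of 0.05 or less after the Benjamini-Hochberg method), which is 1.46% of the genes tested. There were 149 genes higher (0.943%) and 81 lower (0.513%) in the repeated groups. Without adjustment, 2668 genes (16.9%) had a p under 0.05. The changes of the differentially expressed genes were small. The median log2 fold change, given throughout as repeated minus single or none, was 0.31 over the 149 higher genes (range 0.14 to 1.06) and -0.42 over the 81 lower genes (range -1.60 to -0.15), beside -0.006 over all genes tested. A change of 1.5-fold or more was found in 42 of the differentially expressed genes, 23 higher and 19 lower, and one of 2-fold or more in 3, namely Kcnh5 (higher), Prlhr and Kcnj4 (lower). Over all genes tested, called or not, 114 changed by 1.5-fold or more and 12 by 2-fold or more. Symbols were at hand for 182 of the 230 genes. They came from the study's own list of differentially expressed genes, chosen on these same rats, so that 24.1% of the 756 genes with a symbol were called and no count of named genes below is independent evidence of its direction. Of these 756 genes 130 were called higher and 52 lower, 506 had a positive log2 fold change and their median was 0.13. The called counts, the medians and the tallies of positive members in each list below are to be read against these values. In bulk tissue, fewer cells of a type and less RNA per cell cannot be told apart.

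**Figure D1:**
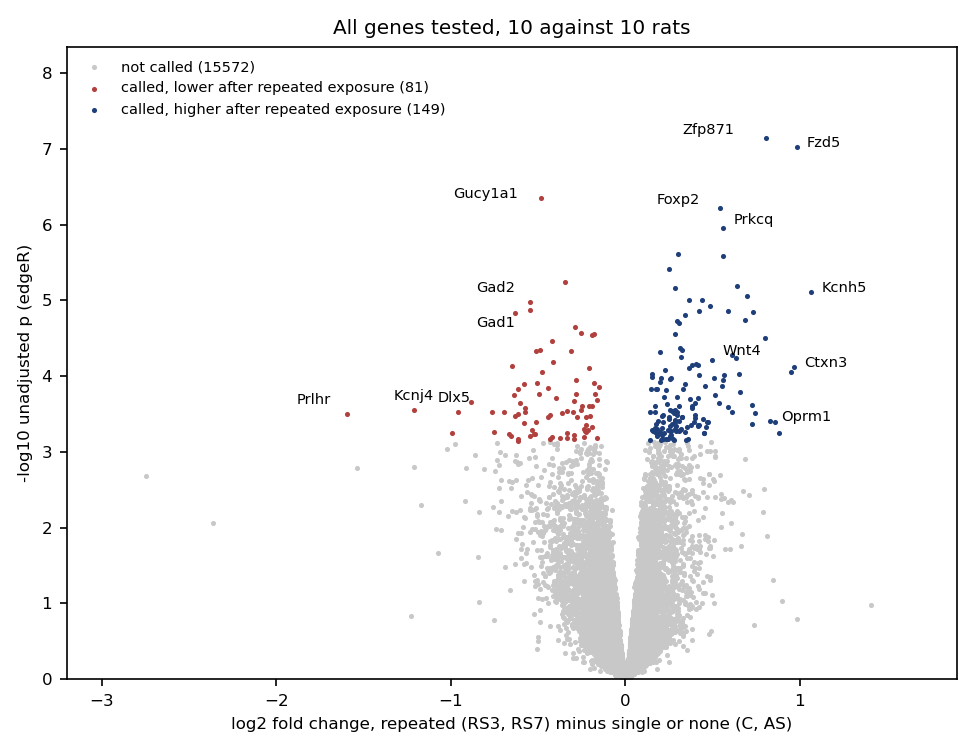
Log2 fold change (repeated minus single or none, x axis) against the -log10 unadjusted p of edgeR (y axis) for 15802 genes, 10 against 10 rats. The 149 higher genes reach a log2 fold change of 1.06 and the 81 lower genes -1.60.

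The Frizzled receptor gene Fzd5 (ENSRNOG00000014678) was 1 of 2 genes among 15802 (0.0127%) whose repeated and other rats did not overlap. Fzd5 had 4.67, 4.99, 5.18, 4.48 and 5.31 CPM (counts scaled to a common library total) in the 5 RS7 rats and 4.87, 5.05, 5.67, 3.82 and 4.11 CPM in the 5 RS3 rats. It had 3.13, 1.71, 2.83, 2.44 and 2.95 CPM in the 5 AS rats and 2.08, 1.46, 1.68, 3.76 and 1.77 CPM in the 5 C rats. Among these 20 rats every repeated rat was above every other rat, although RS3 rat 11 (3.82) and C rat 23 (3.76) nearly touched. The left-out repeated rats 1 and 8 had 2.77 and 2.95 CPM, within the range of the AS and C rats. The log2 fold change was 0.98 (SE 0.13, edgeR adjusted p = 0.000748).

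The lowest p among all genes belonged to Zfp871 (ENSRNOG00000004947), a zinc finger gene. Its lowest, median and highest values were 6.97, 9.15 and 13.1 CPM in the repeated rats and 3.59, 5.41 and 7.25 CPM in the others, and 9 of 10 repeated rats were above all others. The log2 fold change was 0.80 (SE 0.11, edgeR adjusted p = 0.000748). Foxp2, a forkhead transcription factor gene, had 62.7, 77.2 and 89.2 CPM in the repeated rats and 43.1, 50.3 and 68.3 CPM in the others, a log2 fold change of 0.54 (SE 0.08, edgeR adjusted p = 0.0024). Gucy1a1, which encodes a subunit of the soluble guanylate cyclase that nitric oxide activates, was the lower gene with the lowest p. It had 25.9, 29.2 and 33.8 CPM in the repeated rats and 29.6, 42.0 and 48.4 CPM in the others, and 9 of the 10 AS and C rats were above every repeated rat (log2 fold change -0.48, SE 0.07, edgeR adjusted p = 0.00235). The other higher genes with the lowest p were Prkcq (0.56), Prex2 (0.30), Lypd6 (0.56), Mib1 (0.25), Mdfic (0.64), Hecw1 (0.29), Kcnh5 (1.06) and Kcnh7 (0.70), each with its log2 fold change. Lypd6 binds nicotinic receptors and Wnt coreceptors, Mib1 is a ubiquitin ligase of Notch ligands, and Prex2 is an exchange factor for Rac. The other lower genes with the lowest p were Myo16 (-0.35), Gad2 (-0.54), Gad1 (-0.54), Fam20a (-0.63), Ntrk3 (-0.29), Ctbp2 (-0.25), Pitpnm2 (-0.18), Slx4 (-0.19) and Zbtb7c (-0.49). Ntrk3 encodes the receptor of neurotrophin-3 and Ctbp2 a transcriptional corepressor that also gives rise to a protein of synaptic ribbons. Among genes without a symbol, ENSRNOG00000042289 (0.37) and ENSRNOG00000047387 (0.73) had the lowest p of the higher genes and ENSRNOG00000049150 (-0.42) and ENSRNOG00000016502 (-0.31) of the lower genes.

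Among called genes with a symbol, the largest rises by size were in Kcnh5, Fzd5, Ctxn3, Acpp, Fut9 and Dgkh. Ctxn3, which encodes a small brain membrane protein, had 16.1, 26.0 and 34.7 CPM in the repeated rats against 7.59, 12.3 and 27.6 CPM in the others (log2 fold change 0.97, SE 0.19, edgeR adjusted p = 0.0242). The phosphatase gene Acpp rose by a log2 fold change of 0.95 (SE 0.20), the fucosyltransferase gene Fut9 by 0.88 (SE 0.22) and the diacylglycerol kinase gene Dgkh by 0.86 (SE 0.21). Acpp, Fut9 and Dgkh lay under 10 CPM in all 20 rats, and no AS or C rat was below all repeated rats in Fut9. Prlhr, Kcnj4, Dlx5, Sim1 and Ndnf were among the largest falls of called genes with a symbol. Larger falls that did not pass the test are described below with the markers. Prlhr, which encodes the receptor of prolactin-releasing peptide, had 0.241, 0.812 and 2.70 CPM in the repeated rats and 0.629, 3.05 and 5.55 CPM in the others, so that the arms overlapped widely at low counts (log2 fold change -1.60, SE 0.37, edgeR adjusted p = 0.0388). Ndnf, a secreted neuronal factor, had a log2 fold change of -0.67 (SE 0.17). With 1 rat left out at a time, Fut9 was called in 5 of the 20 fits, Ndnf in 6, Prlhr in 7, Sim1 in 8, Dgkh, Kcnj4 and Dlx5 in 9 each, Ctxn3 in 16, Acpp in 17, and Kcnh5 and Fzd5 in 20. In the fit without C rats 21 and 22 and RS7 rat 4, Kcnh5 (edgeR adjusted p = 0.0323) and Fzd5 (0.00845) passed and the others did not, with an edgeR adjusted p from 0.0541 (Acpp) to 0.0989 (Prlhr, Fut9 and Dgkh).

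Genes of GABA synthesis and loading were lower and genes of GABA-A receptor subunits higher after repeated exposure. Of 19 genes listed for GABA transmission, 8 had an identifier and all 8 were tested, with 3 higher, 3 lower and 2 not called. The median log2 fold change of the 8 was 0.20. Gad1 (ENSRNOG00000000007) had 192, 146, 166, 166 and 158 CPM in the 5 RS7 rats and 204, 159, 197, 213 and 211 CPM in the 5 RS3 rats. It had 245, 328, 266, 217 and 297 CPM in the 5 AS rats and 283, 223, 268, 188 and 323 CPM in the 5 C rats. All AS and C rats except C rat 23 were above every repeated rat (log2 fold change -0.54, SE 0.10, edgeR adjusted p = 0.0105). Gad2 (ENSRNOG00000018200) had a lowest, median and highest of 262, 329 and 378 CPM in the repeated rats and 323, 494 and 571 CPM in the others, with the same log2 fold change of -0.54 (SE 0.09, edgeR adjusted p = 0.0105). In both genes 9 of the 10 AS and C rats were above every repeated rat. Slc32a1, the vesicular GABA transporter gene, had 60.9, 72.5 and 96.0 CPM in the repeated rats and 75.4, 96.3 and 118 CPM in the others (log2 fold change -0.38, SE 0.09, edgeR adjusted p = 0.0481).

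Receptor subunit genes moved the other way. Gabrb2, a beta subunit gene, had 93.8, 128 and 153 CPM in the repeated rats and 73.2, 90.7 and 111 CPM in the others (log2 fold change 0.42, SE 0.09, edgeR adjusted p = 0.0266). Gabrb1, another beta subunit gene, had a log2 fold change of 0.42 (SE 0.10, edgeR adjusted p = 0.0427). The delta subunit gene Gabrd had a log2 fold change of 0.48 (SE 0.13) and the GABA-B receptor gene Gabbr2 one of 0.19 (SE 0.07), and neither passed the test (edgeR adjusted p = 0.0722 and 0.192). Gad1 and Gad2 were differentially expressed in all 20 fits that left out 1 rat, Gabrb2 in 13, Gabrb1 in 8 and Slc32a1 in 6. The highest edgeR adjusted p among those fits was 0.0592 for Gabrb2 (without RS3 rat 9) and 0.0272 for Gad1 (without AS rat 17). Without C rats 21 and 22 and RS7 rat 4 together, an alternative added for the gene lists after the values were seen, 0 of the 8 genes passed, with an edgeR adjusted p of 0.0509 for Gad1 and for Gad2.

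**Figure D2:**
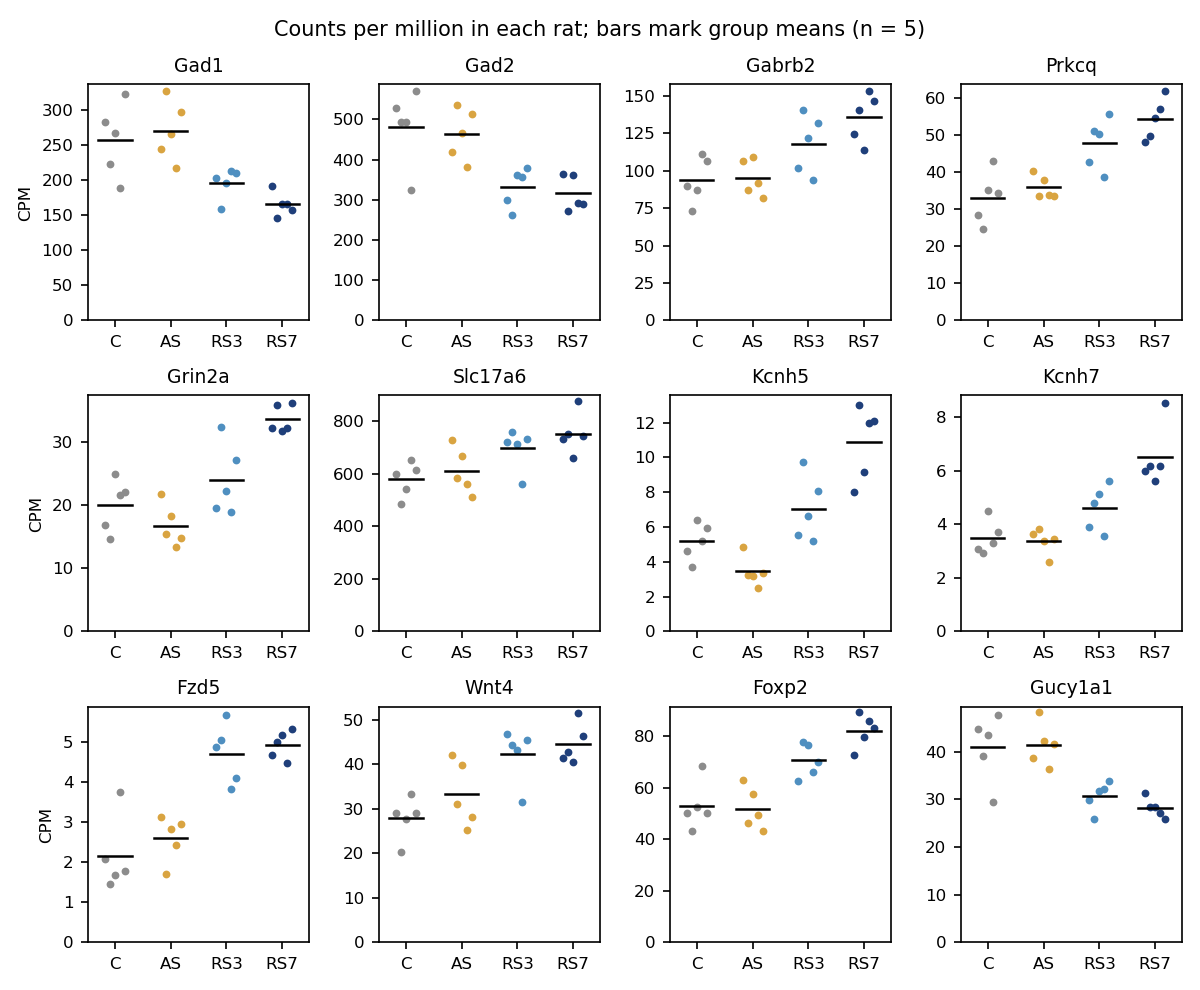
CPM of 12 genes (y axis of each panel, starting at 0) in each of the 20 rats by group (x axis: C, AS, RS3, RS7), with a bar at the mean of 5 rats. Gad1, Gad2 and Gucy1a1 are lower and the other 9 genes higher in RS3 and RS7, and in Kcnh5 and Grin2a the RS7 rats are mostly above the RS3 rats.

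Of 18 genes listed for glutamate transmission, 11 had an identifier, and these were higher or not called. Of the 11, 5 were higher and 0 lower, and their median log2 fold change was 0.24. Slc17a7, Grin1, Gria1, Gria2, Gria3, Gria4 and Grm5 had no identifier and were not examined. Grin2a, which encodes an NMDA receptor subunit, had 19.0, 31.9 and 36.2 CPM in the repeated rats and 13.3, 17.5 and 24.8 CPM in the others (log2 fold change 0.65, SE 0.14, edgeR adjusted p = 0.0266). Slc17a6, the vesicular glutamate transporter gene that marks many hypothalamic and thalamic glutamate neurons, had 562, 732 and 878 CPM in the repeated rats and 487, 590 and 728 CPM in the others. Its arms overlapped, with 6 of 10 repeated rats above all others (log2 fold change 0.29, SE 0.07, edgeR adjusted p = 0.0412). The AMPA receptor auxiliary subunit gene Cnih3 (0.55, SE 0.12) and the calcium-dependent kinase gene Camk4 (0.46, SE 0.10) were also higher on the log2 scale. In the fit without C rats 21 and 22 and RS7 rat 4, 0 of the 11 were called.

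Of 15 potassium channel genes 5 were higher and 1 lower (median log2 fold change 0.25). Kcnh5 and Kcnh7 belong to the ether-a-go-go family of voltage-gated channels. Kcnh5 (ENSRNOG00000009542) had 5.18, 8.61 and 13.0 CPM in the repeated rats and 2.52, 4.18 and 6.39 CPM in the others (log2 fold change 1.06, SE 0.18, edgeR adjusted p = 0.0104). Kcnh7 had 3.57, 5.64 and 8.52 CPM against 2.60, 3.42 and 4.51 CPM (log2 fold change 0.70, SE 0.13, edgeR adjusted p = 0.0105). In each of them 8 of 10 repeated rats were above every AS and C rat. Kcnq3, a subunit of the M-current channel, changed by 0.51 (SE 0.11), the inward rectifier gene Kcnj12 by 0.28 (SE 0.07) and the delayed rectifier gene Kcna2 by 0.23 (SE 0.05) on the log2 scale. The inward rectifier gene Kcnj4 was lower, with 0.322, 0.998 and 2.60 CPM in the repeated rats and 1.21, 2.32 and 4.98 CPM in the others (log2 fold change -1.21, SE 0.28, edgeR adjusted p = 0.0385). Among 12 sodium, calcium and related channel genes 3 were higher and 1 lower (median 0.18). The sodium channel gene Scn1a (0.25, SE 0.06) and Unc80 (0.29, SE 0.06), part of a sodium leak channel complex, were higher, and the cation channel gene Trpc7 was lower (-0.58, SE 0.14). Without C rats 21 and 22 and RS7 rat 4, 2 of the potassium channel genes and 1 of the other channel genes were called.

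Along the Wnt pathway 6 of 17 genes were higher and 1 lower, and 16 of 17 had a positive log2 fold change, with a median of 0.20, beside 506 of 756 and 0.13 over all genes with a symbol. Of the ligands, Wnt4 had 31.6, 43.7 and 51.5 CPM in the repeated rats and 20.4, 29.0 and 42.2 CPM in the others (log2 fold change 0.50, SE 0.10, edgeR adjusted p = 0.0223), and Wnt9b had a log2 fold change of 0.47 (SE 0.11). In Wnt4, 7 of the 10 AS and C rats were below every repeated rat, and RS3 rat 11 was the lowest repeated rat. Of the receptors, Fzd5 is described above, and Fzd3 had 14.4, 21.9 and 27.6 CPM against 10.0, 14.4 and 20.3 CPM (log2 fold change 0.56, SE 0.12, edgeR adjusted p = 0.0278). Of the intracellular members, Tnks, which encodes a poly-ADP-ribose polymerase acting on the scaffold protein axin, had a log2 fold change of 0.18 (SE 0.04) and the nuclear factor gene Tcf7l2 one of 0.36 (SE 0.09, edgeR adjusted p = 0.0481). The Dishevelled gene Dvl2 was lower (-0.28, SE 0.06, edgeR adjusted p = 0.0324). The beta-catenin gene Ctnnb1 had a log2 fold change of 0.20 (SE 0.06) and did not pass (edgeR adjusted p = 0.0583). Tcf7l2 was called in 5 of the 20 fits without 1 rat, Fzd3 in 13, Wnt4 in 19 and Fzd5 in 20. The highest edgeR adjusted p among those fits was 0.0534 for Wnt4 and 0.0618 for Fzd3, both without AS rat 17, and 0.00302 for Fzd5 (without C rat 19). Without C rats 21 and 22 and RS7 rat 4, 2 of the 17 genes were called.

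Transcription factors of the forebrain split in both directions, 4 higher and 5 lower of 19 (median log2 fold change 0.11). Foxp2, Nhlh2 (0.33, SE 0.08) and Etv1 (0.30, SE 0.06) were higher. Dlx5 and Dlx6, homeobox genes that act in developing GABA neurons of the forebrain, were lower, as were Sim1 and Lmo3 (-0.33, SE 0.08). Dlx5 had 0.625, 1.86 and 2.75 CPM in the repeated rats and 1.68, 3.84 and 5.40 CPM in the others (log2 fold change -0.96, SE 0.23, edgeR adjusted p = 0.0385). Dlx6 lay at similarly low counts, with a log2 fold change of -0.64 (SE 0.15, edgeR adjusted p = 0.0326). In Dlx5, 8 of the 10 AS and C rats were above every repeated rat. Isl1 had a log2 fold change of -1.02 (SE 0.26) and Lhx9 of 0.51 (SE 0.14), and neither passed (edgeR adjusted p = 0.0548 and 0.0586). Without C rats 21 and 22 and RS7 rat 4, 2 of the 19 genes were called.

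Of 18 kinase and second messenger genes, 6 were higher and 1, Gucy1a1, lower (median 0.18). Prkcq, a protein kinase C gene, had 38.7, 50.7 and 61.7 CPM in the repeated rats and 24.6, 34.0 and 43.0 CPM in the others, with 8 of 10 repeated rats above all others (log2 fold change 0.56, SE 0.09, edgeR adjusted p = 0.00353). The adenylate cyclase gene Adcy9 (0.20, SE 0.04), the kinase genes Prkcb (0.17, SE 0.04) and Camk1d (0.29, SE 0.07), Camk4 and Dgkh were the other higher genes. Of 21 axon guidance and adhesion genes 3 were higher, the ephrin receptor gene Epha8 (0.44, SE 0.08), Sema3d (0.45, SE 0.11) and Cntn4 (0.29, SE 0.07), and 2 lower, the cadherin gene Cdh9 (-0.44, SE 0.10) and the ephrin gene Efnb2 (-0.29, SE 0.08). Their median was 0.15. Of 16 cytoskeletal genes 2 were higher, among them the neurofilament gene Nefl (0.22, SE 0.05), and 1, Marcks, was lower (-0.18, SE 0.04), with a median of 0.10. Over all 756 genes with a symbol 24.1% were called. The called counts of guidance and cytoskeletal genes did not exceed that share and are no result about those lists. Without C rats 21 and 22 and RS7 rat 4, 2 kinase genes, 1 guidance gene and 0 cytoskeletal genes were called.

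Neuropeptide genes and the stress-responsive genes with an identifier gave few calls. Of 18 neuropeptide and receptor genes, the mu opioid receptor gene Oprm1 was higher and Prlhr lower, and 14 had a negative log2 fold change, with a median of -0.60. Oprm1 had 8.33, 19.4 and 26.6 CPM in the repeated rats and 6.37, 10.5 and 16.1 CPM in the others, with 8 of 10 repeated rats above all others (log2 fold change 0.83, SE 0.20, edgeR adjusted p = 0.0412). The gastrin and cholecystokinin receptor gene Cckbr (-0.62, SE 0.17) and the serotonin receptor gene Htr2c (0.22, SE 0.06) did not pass (edgeR adjusted p = 0.0583 and 0.065). Of 19 chaperone and stress-responsive genes listed, only 10 had an identifier. Of these 10, 0 were higher and 1, the activity-regulated gene Arc, was lower (median 0.13). Fkbp5, Sgk1, Tsc22d3, Per1, Fos, Egr1, Junb, Nr4a1 and Npas4 had no identifier and were not examined. Arc had 3.67, 4.42 and 5.99 CPM in the repeated rats and 3.90, 6.37 and 9.87 CPM in the others (log2 fold change -0.51, SE 0.13, edgeR adjusted p = 0.0412). Klf9, a target of the glucocorticoid receptor, had a log2 fold change of 0.19 (SE 0.05) and the kinase gene Plk2 one of -0.22 (SE 0.06), and neither passed (edgeR adjusted p = 0.0529 and 0.0556). Without C rats 21 and 22 and RS7 rat 4, 0 genes of both lists were called.

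**Figure D3:**
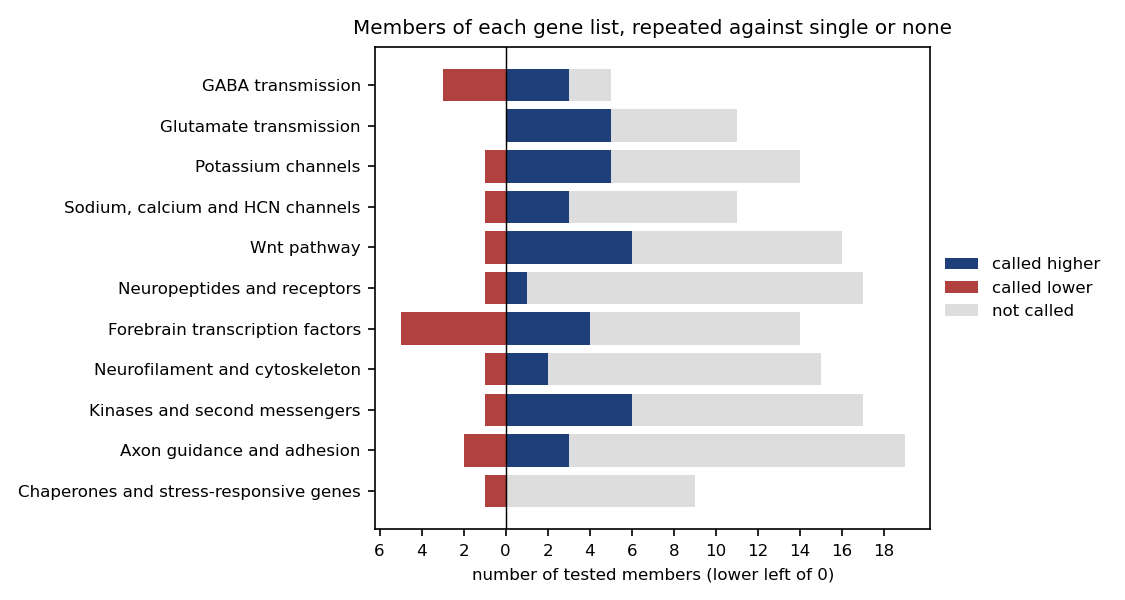
Number of tested members (x axis) of each of the 11 gene lists (y axis) that were called higher (blue), called lower (red, left of 0) or not called (grey). GABA transmission and forebrain transcription factors have calls in both directions, and glutamate transmission has 5 higher and 0 lower. Over all 756 genes with a symbol, 130 were called higher and 52 lower (24.1% called).

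Some markers of neighbouring brain regions and other cell types moved with the arms. Of 7 markers of the dorsal thalamus, which lies dorsal to the hypothalamus, 5 were tested and 3 were called higher, namely Tcf7l2, Slitrk6 (0.32, SE 0.08) and Rora (0.74, SE 0.17), and all 5 had a positive log2 fold change, as had 506 of the 756 genes with a symbol. Their summed level ranged from 598.9 to 1112 CPM (median 894) in the repeated rats and from 563.2 to 838.5 CPM (median 720.2) in the others. Of 5 markers of paraventricular neurosecretory neurons 4 were tested and Sim1 was called lower (-0.70, SE 0.16). Larger negative log2 fold changes in Oxt (-2.75, SE 0.77), Avp (-2.36, SE 0.80) and Trh (-1.54, SE 0.42) did not pass (edgeR adjusted p = 0.0751, 0.137 and 0.0665). The summed level of these 4 markers ranged from 7.66 to 145.3 CPM (median 31.6) in the repeated rats and from 22.4 to 325.1 CPM (median 139.8) in the others. Of the neuron markers 5 were tested and Nefl was higher, of the astrocyte markers 0 of 3 were called, of the vessel markers 1 of 3 was lower (Col4a1, -0.21), while Plvap had a log2 fold change of 0.36 that did not pass (edgeR adjusted p = 0.055), and of the ependymal markers 1 of 3 was lower (Daw1, -0.60). Oligodendrocyte and microglial markers had no identifier. The part of these shifts in the changes of Slc17a6, Foxp2, Sim1, Gad1, Gad2 and the other genes above was not tested.

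The RS3 and RS7 groups, pooled here, did not differ in any gene by the adjusted test (0 of 15802, edgeR), while 1183 genes (7.49%) had an unadjusted p under 0.05, and DESeq2 and limma-voom also gave 0 genes (1142 unadjusted, 7.23%, and 1376, 8.71%), as did edgeR with all 24 rats (3.98% unadjusted). The AS and C groups likewise gave 0 genes with edgeR (1613 unadjusted, 10.2%), DESeq2 (1527, 9.66%), limma-voom (1195, 7.56%) and edgeR with all 24 rats (4.58%). For most of the genes higher after repeated exposure, the RS7 mean was above the RS3 mean. Their median log2 difference from C was -0.008 for AS, 0.22 for RS3 and 0.38 for RS7, and RS7 was above RS3 in 142 of the 149 (95.3%), where 56.8% of all genes had RS7 minus RS3 in the direction of the pooled difference. An unadjusted p under 0.05 for RS7 versus RS3 was found in 37 of the 149. The lower genes had median log2 differences from C of -0.008 for AS, -0.32 for RS3 and -0.41 for RS7, RS7 was below RS3 in 59 of the 81, and 1 of the 81 had an unadjusted p under 0.05. Whether higher and lower genes differ in this was not tested. The AS minus C difference pointed the same way as the pooled difference in 108 of the 230 genes (47.0%), against 58.6% of all genes tested. An unadjusted p under 0.05 was found in 6 of the 230, against 10.2% of all genes tested. The pooled test counts differences between AS and C, or between RS3 and RS7, as spread within an arm. Genes with a large AS minus C difference were thus less likely to be called, and their small number is no result about a single exposure.

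Single genes showed both patterns. Kcnh5 averaged 5.17 ± 1.05 CPM in C, 3.44 ± 0.87 in AS, 7.03 ± 1.89 in RS3 and 10.9 ± 2.15 in RS7 rats (mean ± SD, n = 5). The RS7 minus RS3 difference of Kcnh5 was 0.60 on the log2 scale (SE 0.17, edgeR adjusted p = 0.624). Grin2a had 20.0 ± 4.14, 16.7 ± 3.34, 24.0 ± 5.64 and 33.6 ± 2.21 CPM in the same order, and Oprm1 12.1 ± 3.57, 9.64 ± 2.91, 14.7 ± 4.30 and 23.5 ± 2.49 CPM. In these 3 genes the RS3 mean stood between the C mean and the RS7 mean. Fzd5, by contrast, had 2.15 ± 0.93, 2.61 ± 0.56, 4.70 ± 0.74 and 4.92 ± 0.35 CPM, and its RS7 minus RS3 difference was 0.05 (SE 0.17, edgeR adjusted p = 0.958). Gad2 had 482 ± 94.2, 463 ± 64.2, 332 ± 48.9 and 316 ± 43.5 CPM and Myo16, which encodes an unconventional myosin, 28.1 ± 2.01, 27.3 ± 2.52, 21.8 ± 2.75 and 21.7 ± 2.31 CPM. Fzd5, Gad2 and Myo16 thus had RS3 and RS7 means that differed by less than their SD. Gad1 stood between, with 257 ± 52.7, 271 ± 43.3, 197 ± 21.7 and 166 ± 16.7 CPM.

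**Figure D4:**
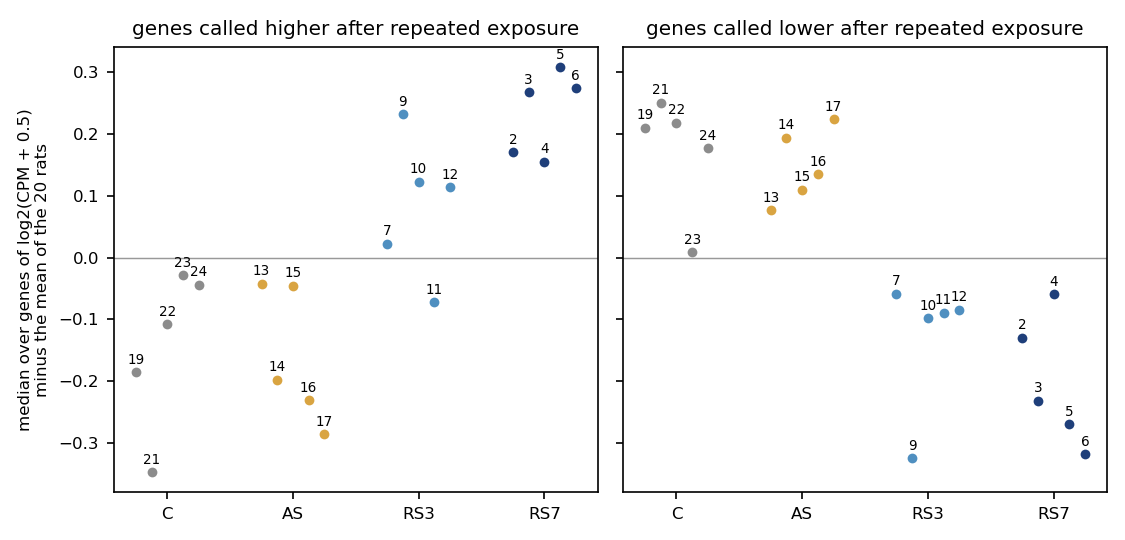
Median over the 149 higher genes (left) and the 81 lower genes (right) of each rat's log2(CPM + 0.5) minus the mean of the 20 rats (y axis), by group (x axis), with rat numbers beside the points. RS3 rat 11 lies at -0.07 among the higher genes, within the range of the AS and C rats, and C rat 23 lies at 0.01 among the lower genes, nearest to the repeated rats.

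The rats did not all follow their arm to the same degree. Over the 149 higher genes the median of each rat's log2 difference from the mean of the 20 rats lay between 0.15 and 0.31 in the RS7 rats and between -0.07 (RS3 rat 11) and 0.23 (RS3 rat 9) in the RS3 rats. It lay between -0.29 and -0.04 in the AS rats and between -0.35 and -0.03 in the C rats, with AS rat 13 and C rat 23 the highest of their groups. Over the 81 lower genes the repeated rats lay between -0.32 and -0.06 and the other rats between 0.01 and 0.25. These medians describe the rats on the genes that separate them and carry no test.

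The 4 rats that the comparison left out gave values for the same genes. The mean of RS7 rat 1 and RS3 rat 8 was compared with that of AS rat 18 and C rat 20. It differed in the direction of the pooled difference in 135 of the 149 higher genes (90.6%). In the lower genes it did so in 53 of 81 (65.4%), nearer to the 58.5% of all genes tested. In all it was 188 of 230 (81.7%). Both repeated rats were beyond both others in 91 of the higher (61.1%) and 21 of the lower genes (25.9%), against 16.8% of all genes tested. Kcnh5 had 11.6 and 9.31 CPM in rats 1 and 8 and 4.60 and 4.92 CPM in rats 18 and 20. Fzd5 had 2.77 and 2.95 CPM against 1.15 and 1.97 CPM. Rats 1 and 8 were thus below every retained repeated rat in Fzd5 (lowest 3.82 CPM). They lay within the range of the retained AS and C rats (1.46 to 3.76 CPM). The values of the 4 left-out rats come from a scaling of all 24 rats. Gad1 had 194 and 243 CPM against 256 and 268 CPM, while Gad2 had 430 and 531 CPM against 457 and 579 CPM and Foxp2 85.2 and 56.1 CPM against 77.1 and 48.6 CPM. In the first 3 of these genes both repeated rats thus lay on their arm's side of both others, and in the last 2 they did not. The 10 most abundant genes took 24.9 to 46.3% of the counts of these 4 rats and 12.4 to 20.3% of those of the 20 retained rats, and their part in these values was not tested.

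The number of differentially expressed genes rested on single rats. With 1 rat left out at a time it ranged from 36 (without AS rat 17) to 596 (without RS3 rat 11). In all 20 such fits 34 genes were called, 24 higher and 10 lower, among them Fzd5, Zfp871, Foxp2, Prkcq, Kcnh5, Kcnh7, Gucy1a1, Gad1 and Gad2. The 20 libraries held 8087697 to 16947298 counts (median 12385781), with medians of 13498294 in the repeated rats and 11814604 in the others. The 10 most abundant genes took a median of 13.9% of the counts in the repeated rats and 14.0% in the others. With the libraries thinned to the smallest total, 105 genes were called, 89 of them among the 230.

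**Figure D5:**
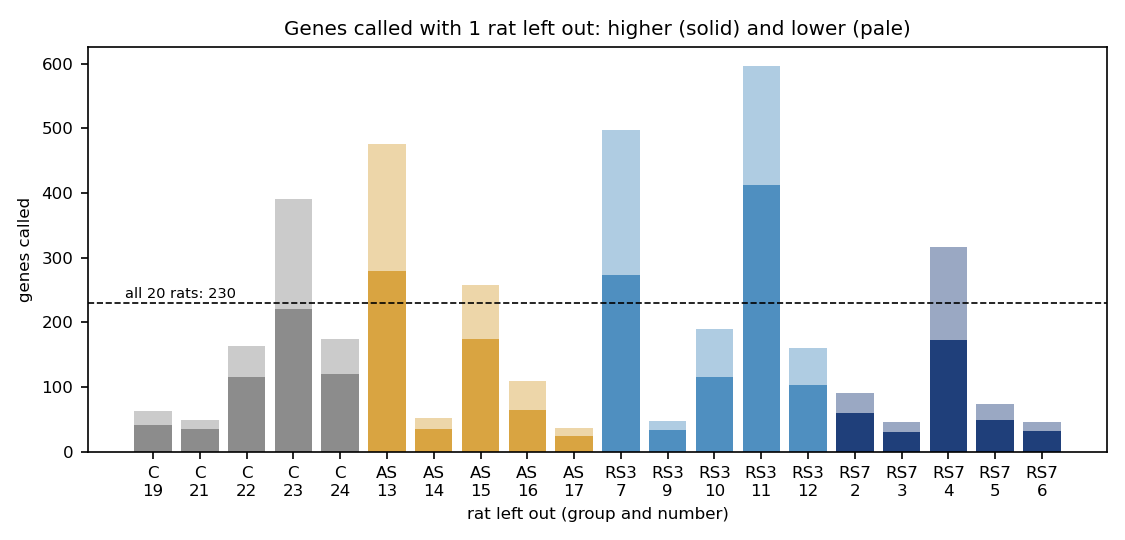
Number of genes called (y axis) when the rat named on the x axis was left out, higher (solid) and lower (pale), coloured by group. The bars reach from 36 (without AS rat 17) to 596 (without RS3 rat 11), and the dashed line marks 230 with all 20 rats.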

How the data were processed

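RNA-seq counts of 20 of 24 rats were compared, 5 per group. The authors trimmed paired reads of 75 bp (Trimmomatic 0.36), mapped them to rn6 (HISAT2 2.0.5) and counted them per Ensembl gene (featureCounts of Subread). The deposited table holds these raw counts without normalization for 32883 genes, of which 7066 had 0 counts in all rats. The strand setting, and how reads that map to more than 1 place were handled, are not given in the sources used here, so overlapping genes and genes with close copies may have exchanged reads.

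Symbols of 756 genes were taken from the list of identifiers published with the study, read only as a map. The gene lists, the members and the tests were chosen with earlier results of these data known. Lists hold the members with an identifier. Genes were named by rule: 10 higher and 10 lower genes with the lowest p, and the 6 largest rises and falls among called genes. To these were added 4 genes without a symbol and the 4 lowest p of each list. Other called list members and the marker genes were named beside them, and Isl1, Lhx9, Ctnnb1, Gabrd and Gabbr2 were chosen after their values were seen. Some genes that meet the rule are not reported here.

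Genes were kept with filterByExpr (minimum count 10) and tested with edgeR 4.0.16 in R 4.3.3 (TMM scaling, robust quasi-likelihood test, 2 arms of 10 rats, two-sided, Benjamini-Hochberg adjusted p of 0.05 or less). RS7 versus RS3 and AS versus C came from 1 fit of the 4 groups. CPM values use TMM-scaled totals. Each library is a separate rat, so p-values measure the spread between rats. Alternatives were DESeq2 1.42.0 (Wald test and size factors), limma-voom 3.58.1 with sample quality weights, 1 surrogate variable (sva 3.50.0), 4 groups in 1 fit, no filter, all 24 rats, libraries thinned to 8087697 counts and leaving out each rat. Further alternatives were a covariate for the 10 most abundant genes (their percentage of all counts) and a fit without RS7 rat 4 and the C rats 21 and 22, which an earlier look at these data had found to stand apart. Their use for counts within gene lists was added after seeing the data.

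Tested on simulated data of 15802 genes with 200 changed in this comparison, edgeR made 184 calls (8 wrong) and found 66% of the 1.25-fold changes, 90% of the 1.5-fold and 96% of the 2-fold ones. With 0 genes changed it made 0 calls. Whether these rates hold for the real counts was not tested. Rats were grouped by the labels, and the 4 rats left out follow the study. Promoter sequences are from RefSeq (GRCr8), matched by symbol.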

Additional observations from a re-analysis of the deposited data

Results flagged for a closer look

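Among 63 named genes in 2 arms of 10 rats (126 gene and arm pairs), 6 pairs had a highest or lowest rat whose gap to its neighbour exceeded the 95% limit of Dixon's test, where chance gives about 1 in 20. In the repeated rats RS3 rat 11 was the lowest and stood apart in Etv1 (116.6 CPM, next 153.7), Unc80 (154.7 CPM, next 194.5) and Wnt4 (31.6 CPM, next 40.6). RS3 rat 7 stood apart in Slx4 as the highest (42.9 CPM, next 38.7) and in Ctxn3 as the lowest (16.1 CPM, next 24.7). In the AS and C rats, C rat 23 was the lowest in Zbtb7c (5.44 CPM, next 6.77). In all 6 cases the rat that stood apart lay toward the other arm. The 6 pairs among 126 are about as many as chance gives. Most came from RS3 rats 11 and 7, and the genes were chosen on these same rats, so the shared direction is no independent evidence.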

How the results depend on the processing

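No paired analysis was possible because each rat has its own number and the groups share none. The 57 called of the 63 named genes, and the 6 not called, kept their direction in all 30 alternatives. All alternatives reuse rats on which these genes were chosen, so a kept direction is no independent evidence. The number of differentially expressed genes, 230 in 20 rats, was 580 with the DESeq2 Wald test (230 shared), 808 with limma-voom (229 shared), 361 with the share of the 10 most abundant genes as covariate (207 shared), 136 without a filter on low counts (131 shared), 105 with thinned libraries (89 shared), 91 in all 24 rats (80 shared) and 41 without C rats 21 and 22 and RS7 rat 4 (37 shared). It was 164 with 1 surrogate variable (123 shared), 302 with 4 groups in 1 fit and 238 with DESeq2 size factors. The share of higher genes was 64.8% with 20 rats and 78.0% in all 24 rats (71 higher, 20 lower). Left out one at a time, rats moved the count from 36 to 596. It was 36 without AS rat 17, 46 without RS7 rat 3 or RS7 rat 6, 48 without RS3 rat 9, 49 without C rat 21, 52 without AS rat 14, 63 without C rat 19, 74 without RS7 rat 5, 90 without RS7 rat 2, 109 without AS rat 16, 391 without C rat 23, 476 without AS rat 13, and 497 and 596 when RS3 rats 7 and 11, respectively, were dropped. The genes whose arms do not overlap numbered 2 with all 20 rats and between 2 and 9 with 1 rat left out (9 without RS3 rat 7, 8 without C rat 23, 7 without rat 11 of RS3 and 5 without RS7 rat 4). With 1 surrogate variable 2 of the 8 GABA genes were called, and in all 24 rats 2. The cause of these differences was not tested. Genes near 1 CPM, such as Prlhr, Kcnj4 and Dlx5, rest on few counts per rat.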
